A study of Mus musculus with 6 samples.

Results

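The mouse cytochrome P450 genes of families 1, 2 and 3, with the Cyp2c genes left out, were described in the livers of HMGB2-KO and WT mice. They were found by gene symbol in the array's annotation (Cyp1a, Cyp1b, Cyp3a and the Cyp2 subfamilies a, b, d, e, f, g, j, r, s, t, u and w, without pseudogenes named as such), which gave 44 genes, 1 row each, of 19505 genes measured. The choice went by symbol alone, but earlier results of these data were known when it was made. The study, set in research on liver regeneration, looked for genes linked to Hmgb2, which encodes a DNA-bending chromatin protein. Total RNA from 6 livers was read on Clariom S arrays, 1 array per liver.

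The HMGB2-KO group was 3 male mice with Hmgb2 knocked out, animals 39, 41 and 32, given as replicates 1 to 3. The WT group was 3 male wild-type mice, animals 38, 40 and 31, likewise replicates 1 to 3. All mice had a C57BL/6 background and were 8 weeks old. The labels name no surgery and no treatment, and do not say how the gene was deleted or whether in hepatocytes alone. Nothing in them says which animals shared a litter, a cage or an hour of collection, so p-values measure the spread between these animals only.

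Enzymes of these families sit in the membrane of the endoplasmic reticulum, take electrons from the reductase Por and oxidise drugs, toxins, steroids and fatty acids around a haem iron. In liver they are concentrated in hepatocytes. Many are switched by ligand-sensing factors: AHR drives the Cyp1 genes, CAR (encoded by Nr1i3) drives Cyp2b10, and PXR (encoded by Nr1i2) drives Cyp3a11. Others follow the sex-specific rhythm of growth hormone, the position of the hepatocyte along the lobule, feeding or the time of day.

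Each value below is a log2 difference from a baseline of the gene's own row, after the array's own median had been subtracted. It can be set against the same gene in another liver, but it gives no level, so neither the order of the genes by abundance nor the presence of liver markers can be read from it. On this scale Hmgb2 was at -0.66, -0.33 and -0.43 in HMGB2-KO replicates 1 to 3, against 0.47, 0.36 and 0.42 in WT replicates 1 to 3. Every liver thus lay on the side its label gives, although Hmgb2 did not pass the test over all genes (log2 fold change -0.89, SE 0.13, adjusted p = 0.645 in limma). The array of WT replicate 2 stood apart. Its median as deposited was 0.26, against -0.05 to 0.01 on the other 5 arrays, and 7 hepatocyte markers had a median of -0.18 there after centring, against 0.03 to 0.05 in HMGB2-KO livers and -0.00 to 0.04 in the other WT livers.

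No difference between HMGB2-KO and WT passed the test for any of the 44 genes. In limma, with Benjamini-Hochberg adjustment over all genes, 0 of 44 had an adjusted p under 0.05, as did 0% of all genes, and the smallest adjusted p among the 44 was 0.994. At an unadjusted p under 0.05 there were also 0, against 3.68% of all genes, and the same model without moderation gave 1, Cyp2j13. Of the 44, 23 lay higher in HMGB2-KO, where 49.5% of all genes did, and 21 lay lower. An absolute log2 fold change of at least 0.5 was reached by Cyp2b10 and Cyp2b9 alone, 2 of the 44, against 3.89% of all genes. The median log2 fold change of the 44 was 0.02, against -0.00 over all genes. With the values as deposited, which lower every fold change by the same amount, the medians were -0.10 and -0.12, so directions near 0 depend on the centring.

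How much change these data leave room for differs between the genes. The 95% interval of the fold change lay within 2-fold either way for 39 of the 44, where 93.2% of all genes had such an interval. It lay within 1.5-fold for 29. The 5 that reached past 2-fold were Cyp2b9, Cyp2b10, Cyp2u1, Cyp3a25 and Cyp3a59, which all differed widely between livers of 1 genotype.

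**Figure D1:**
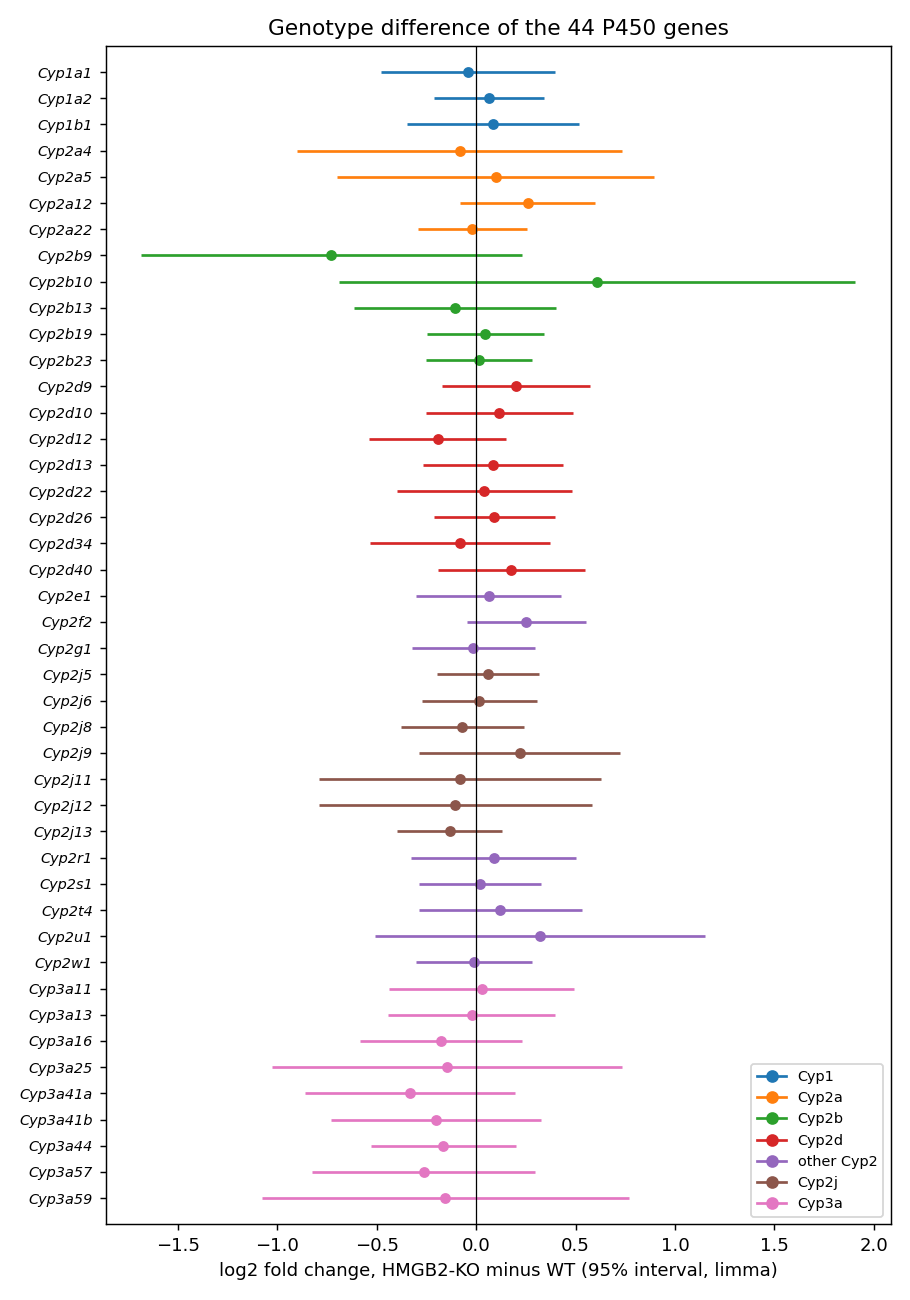
Log2 fold change of each of the 44 genes, HMGB2-KO minus WT (points), with its 95% interval from limma (bars), coloured by subfamily. Every interval crosses 0, from the narrow one of Cyp1a2 (-0.21 to 0.34) to the wide one of Cyp2b10 (-0.69 to 1.90).

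Cyp1a2, which oxidises caffeine and arylamines and is made mainly by hepatocytes near the central vein, was nearly level. It was at 0.16, 0.13 and -0.01 in HMGB2-KO replicates 1 to 3, against -0.03, 0.01 and 0.11 in WT replicates 1 to 3. The genotypes overlapped, and the log2 fold change was 0.06 (SE 0.12, 95% interval -0.21 to 0.34), or -0.05 with the values as deposited. Its range over the 6 livers, highest minus lowest, was 0.19, and only 2.18% of all genes had a range as small. Cyp1a1, the AHR-induced gene next to it, was at -0.04 (SE 0.19), and Cyp1b1, best known outside the liver, was at 0.08 (SE 0.19). Both were highest in WT replicate 2, the array that stood apart, and at 0.16 and 0.25 without it.

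Cyp2e1, the ethanol- and paracetamol-oxidising enzyme of pericentral hepatocytes, was at 0.41, 0.44 and 0.18 in HMGB2-KO replicates 1 to 3, against 0.47, 0.03 and 0.34 in WT replicates 1 to 3. The lowest liver was WT replicate 2, and the other 5 overlapped. The fold change was 0.06 (SE 0.16, 95% interval -0.30 to 0.43), and its sign turned without that liver (-0.06).

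Cyp2f2, known for oxidising naphthalene in the airway and in liver for its periportal expression, had groups that did not overlap. It was at 0.91, 1.11 and 1.05 in HMGB2-KO replicates 1 to 3, against 0.86, 0.62 and 0.84 in WT replicates 1 to 3. All HMGB2-KO livers lay above all WT livers, and every liver lay well above the row's baseline. The log2 fold change was 0.25 (SE 0.13, 95% interval -0.05 to 0.55, adjusted p = 0.994 in limma). It kept its direction without any 1 liver, between 0.18 without WT replicate 2 and 0.31, and as deposited (0.13).

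The groups failed to overlap in 3 of the 44 genes, where 9.67% of all genes did not overlap. Of these 2 lay higher in HMGB2-KO (4.32% of all genes) and 1 lower (5.35% of all genes). Beside Cyp2f2 the higher one was Cyp2j5, an epoxygenase of arachidonic acid. It was at 0.10, 0.12 and 0.16 in HMGB2-KO replicates 1 to 3, against 0.10, 0.08 and 0.02 in WT replicates 1 to 3. The nearest livers of the 2 genotypes were equal to the printed decimals, and the difference was 0.06 (SE 0.11), or -0.06 as deposited. Cyp2j13 lay lower, at -0.09, 0.00 and -0.14 in HMGB2-KO replicates 1 to 3, against 0.05, 0.07 and 0.05 in WT replicates 1 to 3. Its log2 fold change was -0.13 (SE 0.11), and both genes were among the 5 with the narrowest range over the livers.

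**Figure D2:**
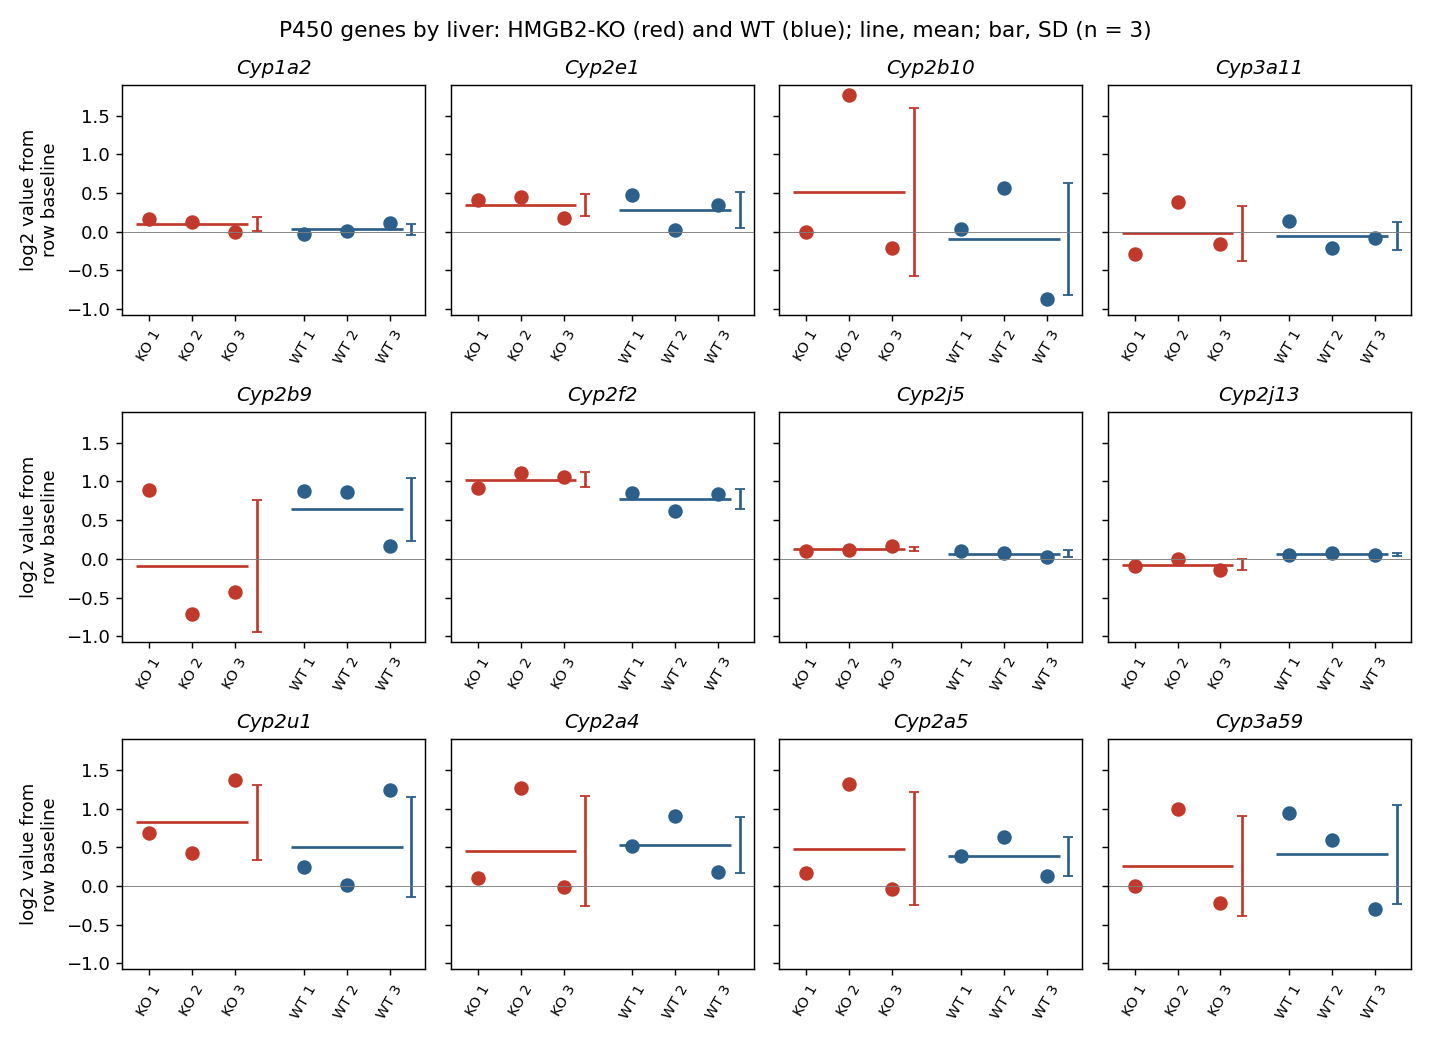
Log2 value from the row's baseline of 12 P450 genes (vertical axis, 1 panel per gene) in each HMGB2-KO liver (red) and WT liver (blue), with the group mean (line) and SD (bar, n = 3). Cyp2b10, Cyp2a4 and Cyp2a5 are highest in HMGB2-KO replicate 2, Cyp2u1 is highest in both livers numbered 3, and Cyp1a2, Cyp2j5 and Cyp2j13 are nearly flat.

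The Cyp2b genes held the largest differences in both directions, and also the widest spread. Cyp2b10, the phenobarbital-inducible target of CAR, was at -0.01, 1.76 and -0.21 in HMGB2-KO replicates 1 to 3, against 0.03, 0.56 and -0.87 in WT replicates 1 to 3. A single liver, HMGB2-KO replicate 2, was far above the rest, and WT replicate 3 was the lowest. Their distance was 2.63 log2, or 6.21-fold, wider than the range of 99.0% of all genes. The log2 fold change of 0.61 (SE 0.56, 95% interval -0.69 to 1.90) became -0.02 without HMGB2-KO replicate 2 and 0.94 without WT replicate 2. Its proximal promoter is shown because no other of the 44 genes varied as widely. The window runs from 250 bases before to 50 bases after the RefSeq start (GRCm38.p6, chr7:25897408-25897707, plus strand), with capitals for a match to TTGCNNAA, a pattern bound by C/EBP factors, 58 bases before the start.
Cyp2b10: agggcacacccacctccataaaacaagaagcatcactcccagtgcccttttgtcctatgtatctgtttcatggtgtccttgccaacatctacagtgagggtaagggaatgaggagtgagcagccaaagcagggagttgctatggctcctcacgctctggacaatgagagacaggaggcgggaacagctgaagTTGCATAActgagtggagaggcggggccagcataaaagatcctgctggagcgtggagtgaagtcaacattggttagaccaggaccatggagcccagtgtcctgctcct

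Cyp2b9, a steroid hydroxylase of female mouse liver, showed a different pattern. It was at 0.89, -0.71 and -0.43 in HMGB2-KO replicates 1 to 3, against 0.88, 0.87 and 0.17 in WT replicates 1 to 3. Of the HMGB2-KO livers 2 lay below every WT liver, and the other was level with the highest of them. The fold change was -0.73 (SE 0.41, 95% interval -1.68 to 0.23), and -1.21 without HMGB2-KO replicate 1 (adjusted p = 0.983 in limma). Cyp2b9 was thus lowest in the liver where Cyp2b10 was highest.

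Cyp2b13, its neighbour and also female-biased, followed it only in part. Cyp2b13 was at 0.24, 0.08 and -0.52 in HMGB2-KO replicates 1 to 3, against -0.07, 0.28 and -0.09 in WT replicates 1 to 3, a fold change of -0.11 (SE 0.22). Both genes were high in HMGB2-KO replicate 1 and WT replicate 2 and low in HMGB2-KO replicate 3. They parted in HMGB2-KO replicate 2 and WT replicate 1. The RefSeq promoters of this pair are close to identical, 298 of 300 bases (GRCm38.p6, plus strand, chr7:26173159-26173458 for Cyp2b9 and chr7:26061245-26061544 for Cyp2b13). They are printed to show how little of this window differs between genes whose values went together only in part. The 2 substituted bases are in capitals.
Cyp2b9: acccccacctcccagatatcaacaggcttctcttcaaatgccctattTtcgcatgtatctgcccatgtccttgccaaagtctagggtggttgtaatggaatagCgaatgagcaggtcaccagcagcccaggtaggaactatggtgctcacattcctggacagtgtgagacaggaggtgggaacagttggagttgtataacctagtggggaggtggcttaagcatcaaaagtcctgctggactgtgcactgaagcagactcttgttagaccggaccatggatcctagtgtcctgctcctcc
Cyp2b13: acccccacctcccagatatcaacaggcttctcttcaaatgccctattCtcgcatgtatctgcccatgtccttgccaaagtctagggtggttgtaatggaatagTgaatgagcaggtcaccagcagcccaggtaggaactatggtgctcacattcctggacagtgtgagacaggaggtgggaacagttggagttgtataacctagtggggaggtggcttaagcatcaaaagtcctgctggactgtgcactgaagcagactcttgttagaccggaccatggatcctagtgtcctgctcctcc

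Of the remaining Cyp2b genes, Cyp2b19, a skin epoxygenase, had a range of 0.29 over the livers and Cyp2b23 one of 0.12, the narrowest of the 44. Their fold changes were 0.05 (SE 0.13) and 0.01 (SE 0.11).

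Cyp2a4 and Cyp2a5, which lie near the Cyp2b genes and encode a steroid hydroxylase and the coumarin hydroxylase, also peaked in HMGB2-KO replicate 2. Cyp2a4 was at 0.10, 1.26 and -0.02 in HMGB2-KO replicates 1 to 3, against 0.51, 0.90 and 0.18 in WT replicates 1 to 3. Cyp2a5 was at 0.16, 1.32 and -0.04 in HMGB2-KO replicates 1 to 3, against 0.39, 0.63 and 0.13 in WT replicates 1 to 3. In both genes the 3 highest livers were HMGB2-KO replicate 2, WT replicate 2 and WT replicate 1, in that order, as in Cyp2b10. The genotypes overlapped, with fold changes of -0.08 (SE 0.35) for Cyp2a4 and 0.10 (SE 0.34) for Cyp2a5. Cyp2a5 was named by the rule for the widest ranges and Cyp2a4 after its values were seen. Close copies may share probe signal, so the likeness of their values is uncertain.

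The promoters of Cyp2a4 and Cyp2a5 match at 294 of 301 aligned positions (GRCm38.p6, plus strand, chr7:26306942-26307241 and chr7:26835089-26835388). They are shown as close relatives that varied together, with capitals for bases that differ or have no counterpart. Both match the pattern TTGCNNAA too, 70 and 71 bases before the start.
Cyp2a4: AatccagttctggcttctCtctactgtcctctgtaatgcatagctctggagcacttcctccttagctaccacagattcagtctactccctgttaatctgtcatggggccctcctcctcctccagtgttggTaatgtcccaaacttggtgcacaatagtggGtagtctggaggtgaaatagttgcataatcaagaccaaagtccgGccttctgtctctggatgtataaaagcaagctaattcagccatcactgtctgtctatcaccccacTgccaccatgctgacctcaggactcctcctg
Cyp2a5: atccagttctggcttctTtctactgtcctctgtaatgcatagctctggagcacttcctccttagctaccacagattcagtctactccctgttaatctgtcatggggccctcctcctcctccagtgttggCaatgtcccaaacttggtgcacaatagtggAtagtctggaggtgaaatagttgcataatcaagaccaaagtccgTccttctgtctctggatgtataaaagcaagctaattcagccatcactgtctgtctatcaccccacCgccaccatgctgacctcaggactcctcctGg

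The other Cyp2a genes were steadier. Cyp2a12, which hydroxylates bile acids and steroids, had a mean of 0.30 ± 0.14 in HMGB2-KO and 0.04 ± 0.19 in WT (SD, n = 3 each). Its fold change was 0.26 (SE 0.15), and the genotypes overlapped through WT replicate 3. Cyp2a22 had a range of 0.18 over the 6 livers and a fold change of -0.02 (SE 0.12).

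The 9 Cyp3a genes had 8 of 9 fold changes below 0, with a median of -0.16, and none passed the test. Leaving out HMGB2-KO replicate 1 gave a median of -0.04 and leaving out HMGB2-KO replicate 2 one of -0.41, and as deposited it was -0.28. Cyp3a11, the main drug-oxidising Cyp3a enzyme of adult mouse liver and a PXR target, was the exception. It was at -0.29, 0.38 and -0.16 in HMGB2-KO replicates 1 to 3, against 0.14, -0.21 and -0.08 in WT replicates 1 to 3. The genotypes overlapped, and the fold change was 0.03 (SE 0.20, 95% interval -0.44 to 0.49), or -0.09 as deposited. Its promoter (GRCm38.p6, chr5:145879805-145880104, minus strand) is shown for the letters CAAAGTCCA, capitalised 109 bases before the start, a pattern bound by the hepatocyte factor HNF4A.
Cyp3a11: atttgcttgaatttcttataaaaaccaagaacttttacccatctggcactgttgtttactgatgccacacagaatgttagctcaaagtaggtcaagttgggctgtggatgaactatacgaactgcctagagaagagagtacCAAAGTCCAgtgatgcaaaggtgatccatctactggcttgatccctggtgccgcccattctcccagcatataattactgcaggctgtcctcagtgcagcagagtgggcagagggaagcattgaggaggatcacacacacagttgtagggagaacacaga

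Cyp3a25 and Cyp3a59 are another pair of close relatives. Cyp3a25 was at 0.40, 1.24 and 0.05 in HMGB2-KO replicates 1 to 3, against 1.17, 0.94 and 0.01 in WT replicates 1 to 3. Cyp3a59 was at -0.00, 0.99 and -0.22 in HMGB2-KO replicates 1 to 3, against 0.94, 0.60 and -0.30 in WT replicates 1 to 3. In both, the livers numbered 3 were the lowest and HMGB2-KO replicate 2 the highest, with ranges of 1.22 and 1.29 over the livers. Both were chosen for description after their values were seen. The fold changes were -0.15 (SE 0.38) and -0.15 (SE 0.40), and they lay between -0.49 and 0.11 and between -0.52 and 0.11 with 1 liver left out. The pair lies on opposite strands of chromosome 5 (GRCm38.p6, chr5:146009569-146009868, minus strand, and chr5:146079008-146079307, plus strand). Their promoters, with differing bases in capitals, match at 288 of 301 aligned positions and are printed as the counterpart of the Cyp2a pair.
Cyp3a25: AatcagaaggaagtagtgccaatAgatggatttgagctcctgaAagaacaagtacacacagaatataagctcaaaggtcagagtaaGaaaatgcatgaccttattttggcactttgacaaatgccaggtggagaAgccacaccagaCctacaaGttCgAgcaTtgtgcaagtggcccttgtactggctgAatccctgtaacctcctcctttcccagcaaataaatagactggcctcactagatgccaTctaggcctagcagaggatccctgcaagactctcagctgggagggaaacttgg
Cyp3a59: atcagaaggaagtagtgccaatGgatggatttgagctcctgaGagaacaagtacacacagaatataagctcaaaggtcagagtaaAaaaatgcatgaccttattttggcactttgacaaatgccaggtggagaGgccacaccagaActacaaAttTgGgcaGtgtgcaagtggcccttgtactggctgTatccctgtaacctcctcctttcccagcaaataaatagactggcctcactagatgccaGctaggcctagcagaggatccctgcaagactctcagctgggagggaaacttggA

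Of the female-biased Cyp3a genes, Cyp3a41a, Cyp3a41b and Cyp3a44 lay below every WT liver in HMGB2-KO replicates 1 and 3. Cyp3a41a was at -0.50, 0.36 and -0.32 in HMGB2-KO replicates 1 to 3, against 0.23, 0.28 and 0.02 in WT replicates 1 to 3. The exception was again HMGB2-KO replicate 2. Its fold change was -0.33 (SE 0.23), and -0.59 without that liver (adjusted p = 0.999 in limma). Cyp3a41b, a near-identical copy, was at -0.20 (SE 0.23), Cyp3a44 at -0.16 (SE 0.16) and the perinatal gene Cyp3a16 at -0.18 (SE 0.18). Promoters of these 4 genes share between 90.3% and 97.0% of aligned positions, so they may not be independent readings. Cyp3a57 was at -0.26 (SE 0.24), and Cyp3a13, which lies apart from the others and is known from the intestine, at -0.02 (SE 0.18).

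The 8 Cyp2d genes had ranges over the livers from 0.33 to 0.64, with a median of 0.54 where that of all genes was 0.52. Of these 6 lay higher and 2 lower in HMGB2-KO, with a median of 0.09, which was -0.00 without WT replicate 2. Cyp2d9, the male-specific testosterone hydroxylase, had the highest fold change of the 8, 0.20 (SE 0.16), with means of 0.43 ± 0.21 in HMGB2-KO and 0.23 ± 0.19 in WT (SD, n = 3 each). WT replicate 2 was the lowest liver for 5 of the 8: Cyp2d9, Cyp2d10, Cyp2d13, Cyp2d26 and Cyp2d40. Their fold changes were between 0.08 and 0.20 with it, and between -0.01 and 0.09 without it. RefSeq lists Cyp2d13 as a transcribed pseudogene. Cyp2d22, often taken as the mouse counterpart of the human CYP2D drug enzyme, was at 0.04 (SE 0.19), Cyp2d34 at -0.08 (SE 0.19) and Cyp2d12 at -0.19 (SE 0.15).

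Beside Cyp2j5 and Cyp2j13, the Cyp2j family of fatty acid epoxygenases had 2 genes with a range above 1. Cyp2j11 was at -0.23, -0.26 and -0.01 in HMGB2-KO replicates 1 to 3, against 0.06, 0.50 and -0.81 in WT replicates 1 to 3. The WT livers held both the highest and the lowest value, and the fold change of -0.08 (SE 0.30) was 0.21 without WT replicate 2. Cyp2j12 was lowest in HMGB2-KO replicate 2, at -0.65, against -0.16 in the next liver, WT replicate 3, and its fold change was -0.10 (SE 0.29). Cyp2j9 was highest in that liver, at 0.96, with a fold change of 0.22 (SE 0.22), or -0.01 without it. Cyp2j6 (0.02, SE 0.12) and Cyp2j8 (-0.07, SE 0.13) had ranges of 0.28 and 0.32 over the 6 livers.

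Among the single-gene subfamilies Cyp2u1, an enzyme that hydroxylates long-chain fatty acids, stood out. It was at 0.68, 0.42 and 1.37 in HMGB2-KO replicates 1 to 3, against 0.25, 0.01 and 1.24 in WT replicates 1 to 3. The livers numbered 3, animals 32 and 31, were the highest of their genotype, and within each number the HMGB2-KO liver was above the WT liver. The log2 fold change was 0.32 (SE 0.36), and with 1 liver left out it ran from 0.05 without HMGB2-KO replicate 3 to 0.69 without WT replicate 3 (adjusted p = 0.875 in limma). Cyp2u1 was singled out after its values were seen. Cyp2r1, which hydroxylates vitamin D, was at 0.09 (SE 0.18), Cyp2t4 at 0.12 (SE 0.18), Cyp2s1 at 0.02 (SE 0.13), Cyp2w1 at -0.01 (SE 0.13) and the olfactory Cyp2g1 at -0.01 (SE 0.13).

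**Figure D3:**
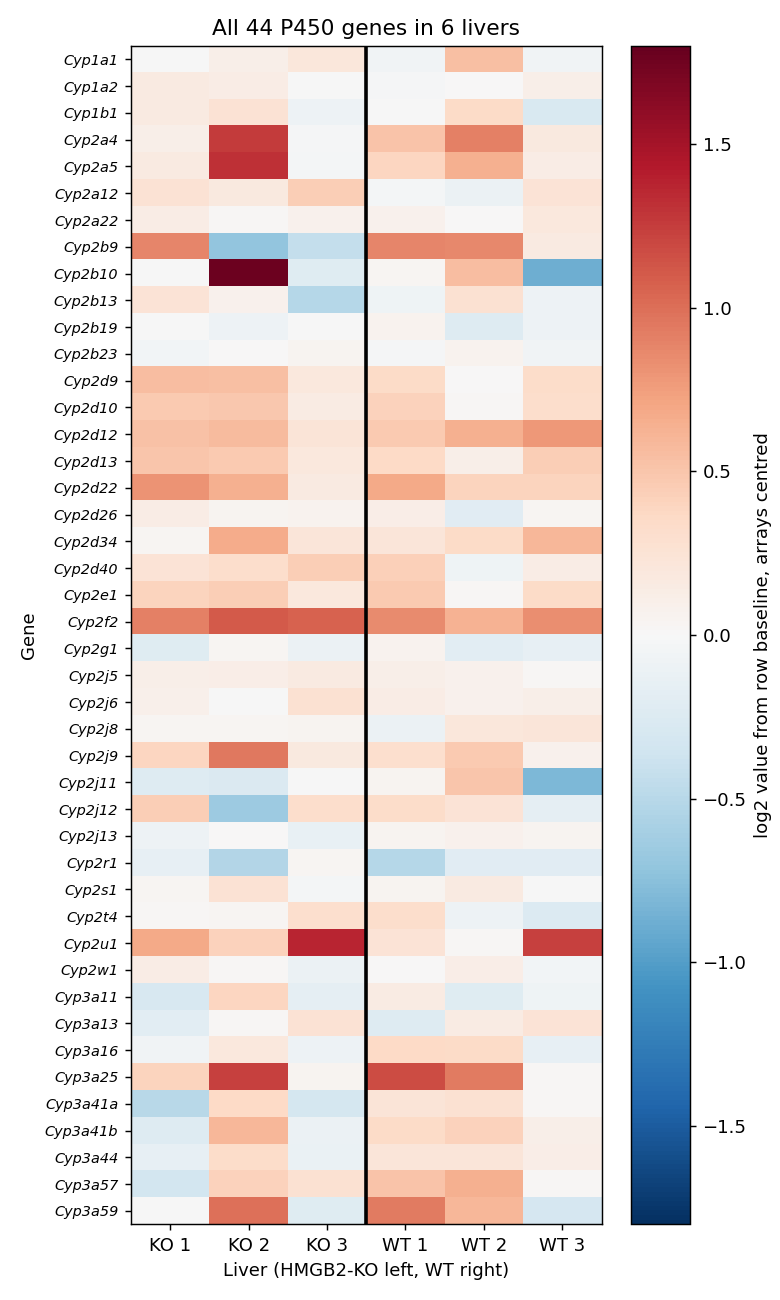
Log2 value from the row's baseline of all 44 genes (rows) in the 3 HMGB2-KO livers (left of the line) and the 3 WT livers (right of it), red above the baseline and blue below. The darkest cell is 1.76 for Cyp2b10 in HMGB2-KO replicate 2. Cyp2u1 is dark in both livers numbered 3 (1.37 and 1.24), and Cyp2f2 is above its baseline throughout.

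Over the 6 livers, 9 of the 44 had a range above 1 log2 (20.5%, against 10.7% of all genes). These were Cyp2b10, Cyp2b9, Cyp2a5, Cyp2u1, Cyp2j11, Cyp3a59, Cyp2a4, Cyp3a25 and Cyp2j12, from the widest to the narrowest. At the other end 18 had a range under 0.5 (40.9%, against 46.6% of all genes). The shares are descriptions, since close copies are not separate measurements.

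**Figure D4:**
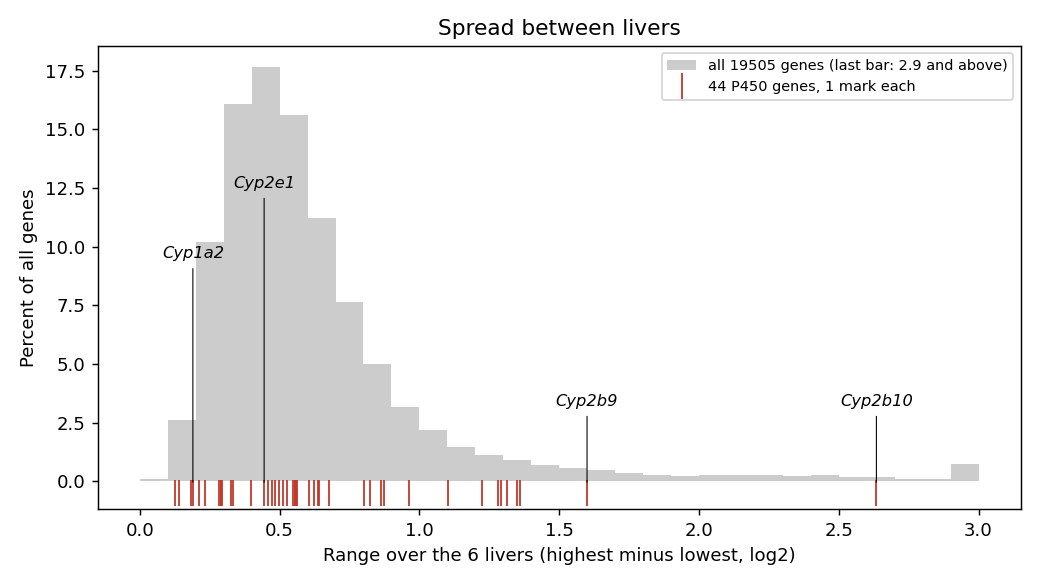
Range of each gene over the 6 livers (highest minus lowest, log2, horizontal axis) as a histogram of all 19505 genes (vertical axis, percent of genes) with 1 red mark for each of the 44 P450 genes. Cyp1a2 at 0.19 lies near the narrow end and Cyp2b10 at 2.63 in the upper tail.

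Liver by liver, HMGB2-KO replicate 2 held the highest value for 14 of the 44 genes, against 15.4% of all genes, and 6 of these were among the 9 Cyp3a genes. WT replicate 2 held the lowest value for 11 of the 44, against 22.3% of all genes. Both livers numbered 2 were at the top of the 6 for 9 of the 44, where 7.68% of all genes had them there. The 2 livers numbered 3 were both at the bottom of the 6 for 11 of the 44, where 9.32% of all genes had them there, and both at the top for Cyp2u1 and Cyp3a13. The 11 were Cyp1b1, Cyp2a5, Cyp2b10, Cyp2b13, Cyp2d22, Cyp2j9, Cyp2s1, Cyp2w1, Cyp3a16, Cyp3a25 and Cyp3a59. These counts were made after the values were seen and carry no test. A change in the number of hepatocytes and a change in RNA per hepatocyte cannot be told apart in whole liver.

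Sequence windows were at hand for 38 of the 44 genes, the exceptions being Cyp2d12, Cyp2d13, Cyp2d22, Cyp2d34, Cyp2g1 and Cyp2u1. Letters were searched on both strands. CAAAGTCCA occurred in 4 of the 38, Cyp3a11, Cyp3a16, Cyp3a41a and Cyp3a41b, and in 0.555% of 27025 genes with a window. The windows of Cyp3a16, Cyp3a41a and Cyp3a41b match each other at 90.3% to 97.0% of aligned positions, so these are not separate occurrences. TTGCNNAA occurred in 10 of 38, among them all 5 Cyp2b genes, Cyp2a4 and Cyp2a5, against 12.2% of all. Here too Cyp2b9 and Cyp2b13 (99.3%) and Cyp2a4 and Cyp2a5 (97.7%) have windows that are near copies. The TATA letters TATAAA occurred in 17 of 38, against 15.7% of all. The AHR core GCGTG occurred in 8 of 38, Cyp1a1 and Cyp1b1 among them, against 35.2% of all. Neither TTATGTAA nor TTACGTAA, the letters bound by clock-controlled bZIP factors, occurred in any of the 38. Only 1.23% of all genes held them, so this absence says little. Several of these letters were shared by steady and by variable genes: Cyp2b23 and Cyp2b10 both hold TTGCNNAA, with ranges of 0.12 and 2.63.

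The regulators of these genes did not pass the test either. Of 22 listed receptors and cofactors 19 were measured, 12 higher and 7 lower in HMGB2-KO, with a median of 0.14, or 0.02 as deposited. It was 0.00 when HMGB2-KO replicate 2 was left out. Nr1i3, encoding CAR, was at 0.08, 0.66 and 0.19 in HMGB2-KO replicates 1 to 3, against 0.29, 0.14 and 0.00 in WT replicates 1 to 3. Its highest liver was the one where Cyp2b10 peaked, but the order of the others differed from that of Cyp2b10. A link between these genes was not tested. The fold change of Nr1i3 was 0.17 (SE 0.18). Nr1i2, encoding PXR, was at -0.35 (SE 0.19) and at -0.18 without WT replicate 2. Ahr was at -0.19 (SE 0.18), and the coactivator Ncoa1, with the smallest p of the list, at 0.32 (SE 0.13, adjusted p = 0.994 in limma).

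Other genes that answer to these receptors gave small counts. Of 7 listed AHR targets outside the P450 genes 4 were measured, 1 higher and 3 lower, with a median of -0.03, or -0.15 as deposited. Nqo1, the quinone reductase, had the smallest p of these. It averaged -0.86 ± 0.09 in HMGB2-KO and -0.38 ± 0.17 in WT (SD, n = 3 each), a fold change of -0.48 (SE 0.14). Its groups did not overlap, where 5.35% of all genes lay lower without overlap. Tiparp was at 0.11, Aldh3a1 at -0.05 and Ahrr at -0.01. Of 17 listed CAR and PXR targets 12 were measured, 7 higher and 5 lower, with a median of 0.11, or -0.00 as deposited. It was -0.02 when HMGB2-KO replicate 2 was left out. The organic anion transporter Slco1a4 had the smallest p of these, with a fold change of -0.76 (SE 0.24). Both Nqo1 and Slco1a4 had an adjusted p of 0.994 in limma.

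Of the haem genes 1 varied widely between livers. Alas1, the rate-limiting enzyme of haem synthesis and a CAR target, was at 0.78, 1.58 and -0.43 in HMGB2-KO replicates 1 to 3, against -0.59, 0.45 and 0.83 in WT replicates 1 to 3, a range of 2.17. HMGB2-KO replicate 2 was the highest liver here too, but the order of the others differed from that of Cyp2b10. Alas1 was named after its values were seen, and its fold change was 0.42 (SE 0.53). Of 12 listed haem genes 11 were measured, 7 higher and 4 lower, with a median of 0.16, or 0.04 as deposited, and Alas1 was the 1 of 11 with a range above 1. The biliverdin reductase Blvra had the smallest p, at 0.31 (SE 0.16). Of 8 listed electron donors and membrane partners 7 were measured, with a median of 0.04, or -0.09 without WT replicate 2 and -0.08 as deposited. The reductase Cyb5r3 had the smallest p of these, at 0.11. Por itself was not analysed here.

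The lists that describe lobule position and sex were set beside the P450 genes that share those features. Of 15 measured pericentral genes 5 were higher and 10 lower, with a median of -0.10, or -0.02 without HMGB2-KO replicate 1. The pericentral P450 genes Cyp1a2 and Cyp2e1 went the other way, both at 0.06, or -0.05 as deposited. Lgr5 had the smallest p of the 15. Its fold change of 1.76 (SE 1.27) was 0.04 once WT replicate 2 was left out. Of 12 measured periportal genes 8 were higher and 4 lower, with a median of 0.13, or 0.02 as deposited, beside the 0.25 of Cyp2f2, and Pigr had the smallest p (0.25, SE 0.13). The 8 female-biased P450 genes had 7 fold changes below 0 and a median of -0.17, which moved to -0.37 when HMGB2-KO replicate 2 was left out and to -0.10 when HMGB2-KO replicate 3 was. Several of the 8 are close copies, so they may not be independent readings. Over all genes 49.5% lay higher in HMGB2-KO. Of 12 other female-biased liver genes, chosen with results of these data known, 8 lay lower, with a median of -0.20 that ran from -0.33 without WT replicate 3 to -0.02 without WT replicate 1. Smallest in p were the P450 genes Cyp2c40, at -1.40 (SE 0.22, adjusted p = 0.735 in limma), and Cyp2c69, at -1.05 (SE 0.21), then Sult3a1, a sulfotransferase, at -0.53 (SE 0.18). A1bg followed, at -0.26 (SE 0.13). Of the 12 genes these 4 lay lower without overlap, where 5.35% of all genes did. They were named for their small p, so the lack of overlap is no separate support. The male-biased P450 genes Cyp2d9 and Cyp2u1 both lay higher. Of 13 other male-biased genes 12 lay higher too, but Serpina1e, Hsd3b5, Cyp7b1 and Moxd1 among these lay lower as deposited. The median of the 13 was 0.14. It was 0.06 without WT replicate 2, 0.29 without HMGB2-KO replicate 1 and 0.03 as deposited. The smallest p among them was that of Cyp4a12a at 0.39 (SE 0.12). Growth hormone signalling had 9 genes measured, 5 higher and 4 lower, with a median of 0.03, or -0.09 as deposited, and the receptor Ghr had the smallest p, at 0.19. None of the genes in these lists passed the adjusted threshold.

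Markers of hepatocytes and of other liver cells were set beside these values, and none passed the adjusted threshold. The 7 measured hepatocyte markers had a median fold change of 0.07, or 0.01 without WT replicate 2 and -0.05 as deposited. Kupffer cell markers lay higher in 10 of 10 measured genes, where 49.5% of all genes did, but Marco and Adgre1 lay lower as deposited. Their median fold change was 0.19, or 0.07 as deposited. The per-liver medians of the 10 overlapped, at 0.41 to 0.67 in HMGB2-KO and 0.21 to 0.43 in WT. Cholangiocyte markers had 5 of 7 lower, a median fold change of -0.29 (-0.41 as deposited), and per-liver medians of -0.19 to -0.14 in HMGB2-KO and 0.01 to 0.16 in WT. Endothelial markers had a median fold change of 0.07 (-0.05 as deposited), stellate markers 0.04 (-0.08 as deposited), lymphocyte markers 0.12 (-0.00 as deposited) and pancreatic acinar markers 0.13 (0.01 as deposited). Which of these genes were at background cannot be read from differences, and their part in the P450 values was not tested.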

How the data were processed

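Total liver RNA of 6 mice was extracted with Trizol and labelled with biotin for Clariom S arrays, per the labels' protocols. The deposited table holds 22206 rows of log values, taken as log2, from -8.60 to 6.93, each relative to a baseline of its own row. How the authors summarized probes and set the baseline was not given in the sources used here, and the number of arrays limits the precision.

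Of these rows 19572 carried 1 gene symbol, 0 several and 2634 none. Each of 55 genes with more than 1 was represented by its row of highest mean, which left 19505 genes. Arrays were centred on their medians. HMGB2-KO minus WT was fitted in limma 3.58.1 (R 4.3.3, lmFit and eBayes, two-sided), with Benjamini-Hochberg adjustment over all genes at 0.05, and checked on simulated data. Promoters came from RefSeq (GRCm38.p6), matched by symbol and aligned globally in pairs.

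The 44 genes and the companion lists were chosen with earlier results of these data known. Values per liver are given for Cyp1a2, Cyp2e1, Cyp2b10 and Cyp3a11, for an absolute fold change of at least 0.5 log2 or an unadjusted p under 0.05, for groups that did not overlap and for the 3 widest ranges, and for others where said. Of the companion lists other than markers of cell types the gene with the smallest p is named, of the female-biased list the 4 smallest, with Ahr, Nr1i2 and Nr1i3.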

Additional observations from a re-analysis of the deposited data

How the results depend on the processing

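Under each alternative 0 of the 44 genes, 0 genes of the companion lists and 0 of all genes passed the adjusted threshold in limma. Among all genes 601 to 946 had an unadjusted p under 0.05, against 717 in the setting used throughout. Among the 44, that count of 0 became 1 without moderation (Cyp2j13), with the replicate block (Cyp2b10) and in animals 38 to 41 alone (Cyp2j11). It ran from 0 to 3 with 1 liver left out: Cyp2b9 without HMGB2-KO replicate 1, Cyp3a41a and Cyp3a41b without HMGB2-KO replicate 2, and Cyp2a12, Cyp2j11 and Cyp2u1 without WT replicate 3. Genes whose groups did not overlap, 3 before, numbered 2 as deposited (4.55%, against 11.4% of all genes). There were also 2 with quantile normalization (4.55%, against 9.81% of all genes). They numbered 12 in animals 38 to 41 (27.3%, against 32.8% of all genes) and 4 to 9 with 1 liver left out. Without HMGB2-KO replicate 2 there were 9 (20.5%, against 18.2% of all genes), and the other such settings gave 9.09% to 18.2%, against 17.9% to 21.8% of all genes. The replicate numbers were not taken as pairs in the main setting, since the labels name no pairs. Deviations of the livers numbered 1, 2 and 3 correlated across genes at 0.04, 0.13 and 0.29. Livers of unlike number correlated between -0.21 and 0.10. Each WT liver was nearest to the HMGB2-KO liver of its own number, but HMGB2-KO replicate 1 was nearest to WT replicate 2. These values do not settle whether the numbers mark pairs. With the replicate number as a block 858 genes had an unadjusted p under 0.05, against 717 without it. Cyp2b10 was then at 0.61 (SE 0.24, against 0.56 without the block, adjusted p = 0.922 in limma). Of the 44 fold changes 14 kept their sign in every alternative and 30 did not. As deposited, through the shift of the median, Cyp1a2 was at -0.054, Cyp1b1 at -0.034, Cyp2a5 at -0.020, Cyp2b19 at -0.071, Cyp2b23 at -0.10, Cyp2d10 at -0.00157, Cyp2d13 at -0.034, Cyp2d22 at -0.077, Cyp2d26 at -0.026, Cyp2e1 at -0.054, Cyp2j5 at -0.058, Cyp2j6 at -0.10, Cyp2r1 at -0.028, Cyp2s1 at -0.099, Cyp3a11 at -0.090 and Cyb5r3 at -0.00619. With quantile normalization Cyp1a1 was at 0.040, Cyp2j11 at 0.00660, Cyp2w1 at 0.015 and Cyp3a13 at 0.013. With array weights Cyp1a1 was at 0.039, Cyp2w1 at 0.00268, Cyp3a11 at -0.00278 and Cyp3a13 at 0.041. In animals 38 to 41, with fewer livers, Cyp2a22 was at 0.030, Cyp2b13 at 0.055, Cyp2b23 at -0.038, Cyp2d34 at 0.075, Cyp2j6 at -0.064, Cyp2t4 at -0.089 and Cyp2w1 at 0.00882. With 1 liver left out, signs turned within these ranges: Cyp1a1 -0.14 to 0.16, Cyp1b1 -0.064 to 0.25, Cyp2a22 -0.062 to 0.029, Cyp2a4 -0.49 to 0.15, Cyp2a5 -0.32 to 0.36, Cyp2b10 -0.016 to 0.97, Cyp2b13 -0.26 to 0.12, Cyp2b19 -0.024 to 0.12, Cyp2b23 -0.013 to 0.049, Cyp2d13 -0.015 to 0.19, Cyp2d22 -0.092 to 0.23, Cyp2d26 -0.00352 to 0.16, Cyp2d34 -0.26 to 0.058, Cyp2e1 -0.062 to 0.16, Cyp2g1 -0.079 to 0.064, Cyp2j11 -0.44 to 0.21, Cyp2j12 -0.31 to 0.24, Cyp2j6 -0.062 to 0.080, Cyp2j9 -0.00628 to 0.39, Cyp2r1 -0.034 to 0.25, Cyp2s1 -0.067 to 0.081, Cyp2w1 -0.067 to 0.050, Cyp3a11 -0.17 to 0.16, Cyp3a13 -0.17 to 0.091, Cyp3a25 -0.49 to 0.11, Cyp3a59 -0.52 to 0.11, Nr1i3 -0.00831 to 0.28 and Alas1 -0.054 to 0.95. The cause of these turns was not tested beyond that. Genes with a range above 1 numbered 9 to 12 under the other scalings. Signal over background was not given in the sources used here.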
